A study of Mus musculus with 10 samples.

Results

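Divided B lymphocytes at the end of Phase I, the mitogen-dependent step of a culture driven through the antigen receptor and CD40, were compared with resting cells of the same kind, across all genes of a transcript abundance table. The comparison uses 4 of the 10 libraries of the series, 2 of resting cells and 2 of divided cells, and they were chosen by their labels alone. All cells were splenic B cells of C57BL/6 mice, an inbred laboratory strain. The resting group (naive) had no activation. The divided group (div12) had been given a pulse of antibodies to IgM, the antigen receptor, and to CD40, a receptor for T cell help, and was taken 48 h later as cells that had divided. A second group from the same culture step, activated for 48 h without dividing (div0, 2 libraries), is given beside some values. The labels describe each Phase I replicate as independent and made from a pool of 4 to 5 mice. Whether resting and activated libraries of the same number came from the same pool is not given in the sources used here, nor is how resting cells were purified. P-values rest on 1 estimate of the spread between libraries, shared by all 5 groups of the series. A divided cell differs from a resting one by activation, by 48 h of culture and by division, and these cannot be told apart in this comparison.

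A resting B cell is small and arrested in G0, held there by transcription factors such as KLF2 and FOXO1 and by inhibitors of cyclin-dependent kinases. Crosslinking of the antigen receptor starts calcium, MAP kinase and NF-kB signals, and CD40 adds a sustained NF-kB signal, which together bring growth, entry into S phase and division. Cells that divide replicate their DNA with the MCM helicase and its partners and segregate it with kinesins, the spindle checkpoint and mitotic kinases, many of whose genes are read out in G2 from promoters with CCAAT boxes and the cell cycle genes homology region (CHR).

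The table listed 6610 genes, and 4427 of them reached 1 TPM in at least 2 libraries and were tested. TPM is a length-corrected share of the listed transcripts, so sequencing depth is unknown and a level is always relative to the rest of the library. The B cell label held in every library. Cd79a, a signalling chain of the antigen receptor, stood at 10896 and 10712 TPM in resting cells and 6235 and 6684 TPM in divided cells and Pax5, the transcription factor of B cell identity, at 1038 and 978 TPM in resting cells and 642 and 453 TPM in divided cells. The 2 resting libraries were further from each other than the divided ones. The standard deviation of the log2 ratio between replicates was 0.553 for resting and 0.280 for divided cells, and 340 genes against 33 were more than 2-fold apart. In the other 3 groups it was 0.258 to 0.333, so the shared estimate of spread draws mostly on groups tighter than the resting one.

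Most tested genes changed. Of the 4427, 2962 (66.9%) were called at a Benjamini-Hochberg adjusted p under 0.05 by limma, two-sided, with 858 higher (19.4%) and 2104 lower (47.5%) in divided cells. The words rose and fell are kept for genes that passed, and changes are differences of log2(TPM + 1), which understate the change of low genes. The median change over all tested genes was -0.35, so a list is read against that value and not against 0. The balance of directions depends on the scaling. Median-ratio scaling moved the median to -0.06 and gave 1350 higher and 1513 lower, and quantile normalization moved it to 0.06 and gave 1472 higher and 1294 lower. Libraries of the 2 groups did not overlap for 3563 genes (80.5%), with 1082 higher (24.4%) and 2481 lower (56.0%) in divided cells. Large changes were fewer and leaned downward, with 117 rises and 321 falls of more than 4-fold. Of those falls 149 were genes more than 2-fold apart between the resting libraries, and of the rises 6 were. That distance was read on log2(TPM + 1), which understates it at low resting levels, as in the riser Pdgfa (0.214 and 0.647 TPM). The counts 149 and 6 are therefore not directly comparable. The transcriptome of divided cells was also narrower: 3936 and 3912 genes reached 1 TPM in the divided libraries and 4281 and 4376 in the resting ones, and the 20 most abundant genes held 27.6% and 29.6% of all TPM against 24.7% and 24.3%. Undivided libraries were similar, with 3937 and 3971 genes and 29.0% and 28.5%, so this is not particular to divided cells. The part that genes of other cells have in the resting counts was not tested.

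**Figure D1:**
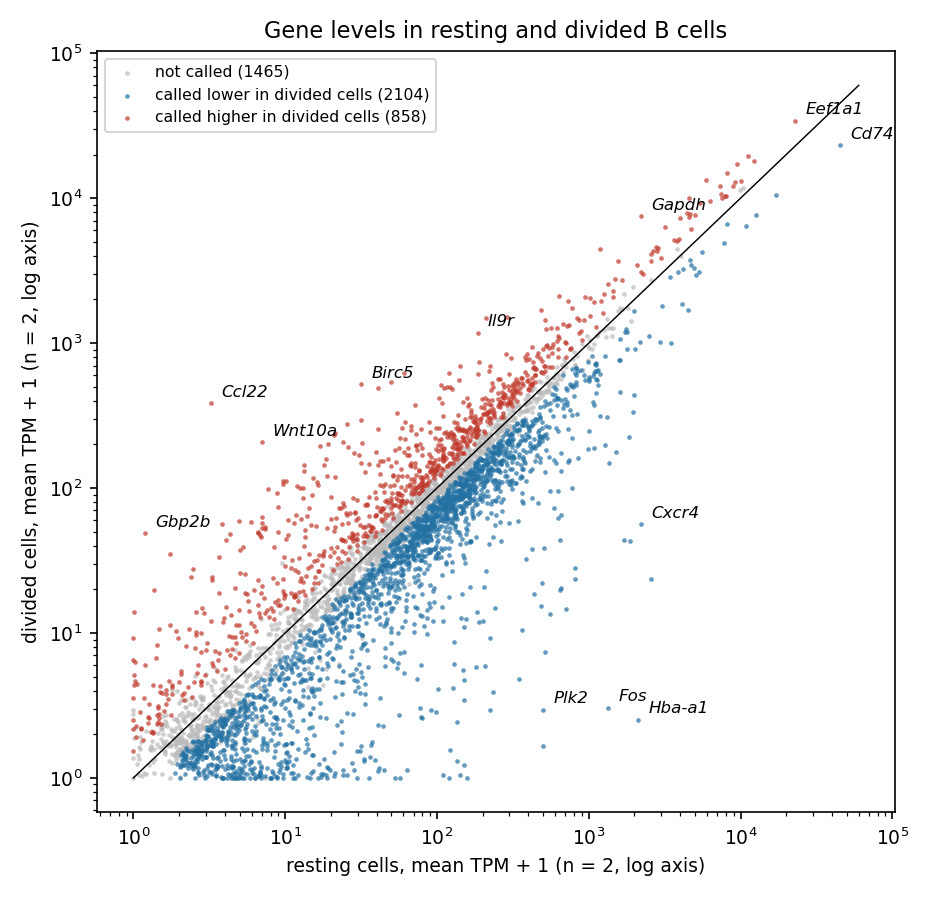
Mean TPM + 1 of each of the 4427 tested genes in resting cells (x axis) and divided cells (y axis), both on log axes with n = 2 libraries a group; the line marks equal levels and colour the limma call. Falls reach further from the line than rises, and Eef1a1 and Cd74 are the most abundant genes of divided and resting cells.

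The most abundant genes of divided cells were mainly those of protein synthesis. Eef1a1, the elongation factor that delivers aminoacyl tRNA to the ribosome, rose from 23102 and 22816 to 34214 and 34408 TPM and took first place from Cd74, the invariant chain of MHC class II, which fell from 47705 and 42487 to 25728 and 20851 TPM. Their log2 changes were 0.58 (SE 0.08, adjusted p = 3.6e-04) and -0.96 (SE 0.13, adjusted p = 2.4e-04), and the libraries did not overlap for either. Of the 20 most abundant genes 16 were also among the 20 most abundant of resting cells. Ppia, the prolyl isomerase cyclophilin A, climbed from rank 23 to rank 7 with 6003 and 5794 TPM in resting cells and 13021 and 13599.9 TPM in divided cells. Rpsa, a protein of the small ribosomal subunit, climbed from rank 35 to 18, and H2-Aa, a class II alpha chain, dropped from rank 3 to 15 with 18798 and 15256 TPM in resting cells and 9787 and 11386 TPM in divided cells. Rps19, Tmsb4x, Rpl32, Rpl28, Rpl12, Rps16, Cd52, Rpl38, Rps28 and Rpl34-ps1 were also among the 20 and rose by 0.37 (Rpl38) to 0.87 (Rpl28). Fau, a ribosomal fusion protein, and Actb, cytoplasmic actin, did not pass the test, with log2 changes of 0.18 and 0.22. Both passed with median-ratio scaling, at 0.49 (adjusted p = 0.024) and 0.53 (adjusted p = 0.0051), while with quantile normalization Fau was called in the opposite direction, at -0.22 (adjusted p = 0.043), and Actb stood at -0.087. With quantile normalization the change of Rpl38 was -0.047, and Tmsb4x, Rpl12, Rps16, Rps28 and Rpl34-ps1 no longer passed. Rps16, Rps28 and Tmsb4x also lost the call without resting replicate 1 or divided replicate 2, and Rpl38 without either resting library or divided replicate 2. The pseudogene Rpl34-ps1 may hold reads of its parent gene.

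Mitotic genes had the highest median change of all lists. Of 14 tested genes for mitotic kinases, cyclins and the spindle checkpoint, 13 rose and 1 fell, against backgrounds of 19.4% and 47.5%, with a median log2 change of 3.07. Ccnb2, a B type cyclin, stood at 25.5 and 23.2 TPM in resting cells and 289.9 and 258 TPM in divided cells, a log2 change of 3.44 (SE 0.17, adjusted p = 3.8e-06). Ccna2, the cyclin of S and G2 phase, stood at 33.2 and 27.8 TPM in resting cells and 317 and 273 TPM in divided cells, and Bub1, a checkpoint kinase, at 7.18 and 6.33 TPM in resting cells and 105 and 88.6 TPM in divided cells, with log2 changes of 3.23 and 3.65. In each of these the lowest divided library was well above the highest resting one. The member that fell was Cdc25b, a phosphatase that activates cyclin-dependent kinase 1, at 194 and 207 TPM in resting cells and 105 and 74.2 TPM in divided cells. The 17 genes for kinesins, centromere, condensin and spindle proteins all rose, with a median of 2.53. Among them Birc5, which encodes survivin of the chromosomal passenger complex, went from 27.9 and 33.4 to 540.0 and 505 TPM, a log2 change of 4.05 (SE 0.15, adjusted p = 1.3e-06). Tpx2, a spindle assembly factor, changed by 3.53, and the tubulin genes Tuba1b and Tubb5 by 1.89 and 1.73 from far higher resting levels of 1192 and 1187 and 599.5 and 664 TPM.

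Promoter sequence was read for the mitotic list because 13 of its 14 members rose. Windows were the 250 bases before each RefSeq start (GRCm38.p6), and 11 of the 14 genes had one. A CCAAT box (CCAAT on either strand) was present in 11 of 11, against 37.5% of the 27025 genes with windows, 46.7% of the called higher genes and 37.8% of the called lower genes. Cdc25b, the member that fell, was 1 of the 11, and in the list of kinesins, centromere, condensin and spindle genes, all of which rose, the box was present in 7 of 14 windows. A CHR (TTTGAA, or its form TTCGAA, on either strand) was present in 3 of 11, in Cdk1, Ccnb2 and Bub1b, against 19.6% of all genes. An E2F site (TTTCCCGC or TTTGGCGC on either strand) was present in 0 of 11 and in 1.51% of all genes. No motif overlapped another in the window shown. A match describes letters and is neither a shown binding site nor a cause. The window of Ccnb2 is printed for its 3 evenly spaced CCAAT boxes, in capitals together with a TTTGAA further upstream, at chr9:70421555-70421804 on the minus strand.
Ccnb2: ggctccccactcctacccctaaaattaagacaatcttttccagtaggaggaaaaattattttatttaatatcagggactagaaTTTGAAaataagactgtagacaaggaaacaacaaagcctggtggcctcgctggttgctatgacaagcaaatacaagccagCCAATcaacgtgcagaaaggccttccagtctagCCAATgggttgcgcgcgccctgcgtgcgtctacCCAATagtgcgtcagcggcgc

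Replication genes rose as a group as well. Of 20 genes for licensing and fork proteins 19 rose (95%, against 19.4% of all genes) and 1 fell, with a median of 1.76. Pcna, the sliding clamp of DNA polymerase, stood at 556 and 470.4 TPM in resting cells and 1404 and 1457 TPM in divided cells, and Mcm5, a subunit of the replicative helicase, at 113 and 99.2 TPM in resting cells and 534 and 492 TPM in divided cells, log2 changes of 1.48 (SE 0.11, adjusted p = 1.2e-05) and 2.27 (SE 0.13, adjusted p = 5.9e-06). Mcm6 and Mcm7 changed by 1.95 and 1.99. The 1 member that fell was Cdt1, the licensing factor that loads the helicase and is destroyed in S phase, at 302 and 196 TPM in resting cells and 117 and 79.8 TPM in divided cells. Of 14 enzymes of nucleotide synthesis 10 rose (71.4%) and 0 fell. Rrm2, the regulated subunit of ribonucleotide reductase, went from 38.3 and 41.4 to 534 and 449 TPM, a log2 change of 3.59 (SE 0.17, adjusted p = 3.1e-06), while Nme2, an abundant nucleoside diphosphate kinase, changed by 1.42 and Phgdh, the first enzyme of serine synthesis, by 1.70.

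Genes of entry into the cycle moved unequally. Of 16 cyclins of G1 and S phase, E2F and pocket proteins 12 rose (75%, against 19.4% of all genes) and 3 fell (18.8%, against 47.5%). Their median was 0.82. Tfdp1, the dimerization partner of E2F proteins, changed by 2.37 (SE 0.12, adjusted p = 3.8e-06), from 70.1 and 71.8 to 393 and 352 TPM. Cdk4 and Cdk2 changed by 1.35 and 0.85, and Ccne2, a cyclin of the G1 to S step, by 2.86. The 3 that fell were the pocket protein genes Rb1 (-0.78) and Rbl2 (-0.67), which hold E2F in check, and Ccnd1 (-0.86), a D type cyclin at a resting level of only 7.79 and 14.9 TPM. The call of Ccnd1 was lost without resting replicate 2, where its change was -0.43 (adjusted p = 0.087), without divided replicate 1 or 2, and with both other scalings. Ccnd3, a D type cyclin of B cells, changed by 0.41, and that call was lost without resting replicate 1 (0.22, adjusted p = 0.16) and without divided replicate 1 (0.30, adjusted p = 0.15).

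The brakes of the cycle went the other way. Of 24 genes for inhibitors of cyclin-dependent kinases and for transcription factors of quiescence, 20 fell (83.3%, against 47.5% of all genes) and 2 rose, with a median of -1.31. Klf2, which keeps lymphocytes quiescent, stood at 2103 and 1292 TPM in resting cells and 45.2 and 40.3 TPM in divided cells, a log2 change of -5.24 (SE 0.24, adjusted p = 2.9e-06). Tsc22d3, the glucocorticoid-induced leucine zipper gene, stood at 1594 and 2124 TPM in resting cells and 43.4 and 40.5 TPM in divided cells, and Klf4 at 289 and 158 TPM in resting cells and 2.0 and 1.85 TPM in divided cells, with changes of -5.42 and -6.20. In all 3 genes the divided libraries lay close together and far under both resting libraries. Txnip and Zfp36l1, a binding protein of AU-rich mRNA, fell by less, -2.08 and -1.14, from levels of 1544 and 1098 and 2159 and 1861 TPM. Cdkn1b, the inhibitor p27, had a log2 change of -1.36 and Foxo1 one of -1.73. The 2 that rose were the inhibitor genes of the INK4 locus, Cdkn2a at 0.822 and 1.09 TPM in resting cells and 7.59 and 8.90 TPM in divided cells and Cdkn2b at 1.09 and 0.32 TPM in resting cells and 3.73 and 3.60 TPM in divided cells, log2 changes of 2.24 (SE 0.26, adjusted p = 1.3e-04) and 1.49 (SE 0.25, adjusted p = 8.6e-04), both still low. Ddit4 and Slfn2 did not pass the test. Without resting replicate 2 both did, with changes of 2.19 and 0.72, while without resting replicate 1 Slfn2 passed at -0.68, so its direction turns with the resting library that is read. Ddit4 also passed with median-ratio scaling, at 1.43.

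Immediate early genes, which encode transcription factors and phosphatases induced within minutes of a signal or of handling, fell in 20 of 20 cases against 47.5% of all genes, and in 18 of 20 with either other scaling. Fos stood at 970.4 and 1702 TPM in resting cells and 1.25 and 2.85 TPM in divided cells and Fosb at 536 and 463 TPM in resting cells and 0.371 and 0.945 TPM in divided cells. Jund, a more stable partner, had a log2 change of -2.50, from 1223 and 936 to 182 and 196 TPM. Their summed level was 14399 and 9638 TPM in resting, 2003 and 1564 TPM in undivided and 971 and 1077 TPM in divided libraries. Resting libraries differed within this list. Nr4a1, a nuclear receptor induced by antigen receptor signals, was at 4603 and 546 TPM in resting replicates 1 and 2 and at 25.5 and 19.8 TPM in divided cells, so the size of its change (-6.08) rests on which resting library is read. Plk2, a polo-like kinase outside the list, was at 892 and 98.7 TPM and then 1.67 and 2.24 TPM, the largest fall among the genes named by rule outside the lists of early genes and other cells (-6.67). How these levels relate to the handling of the resting cells was not tested.

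**Figure D2:**
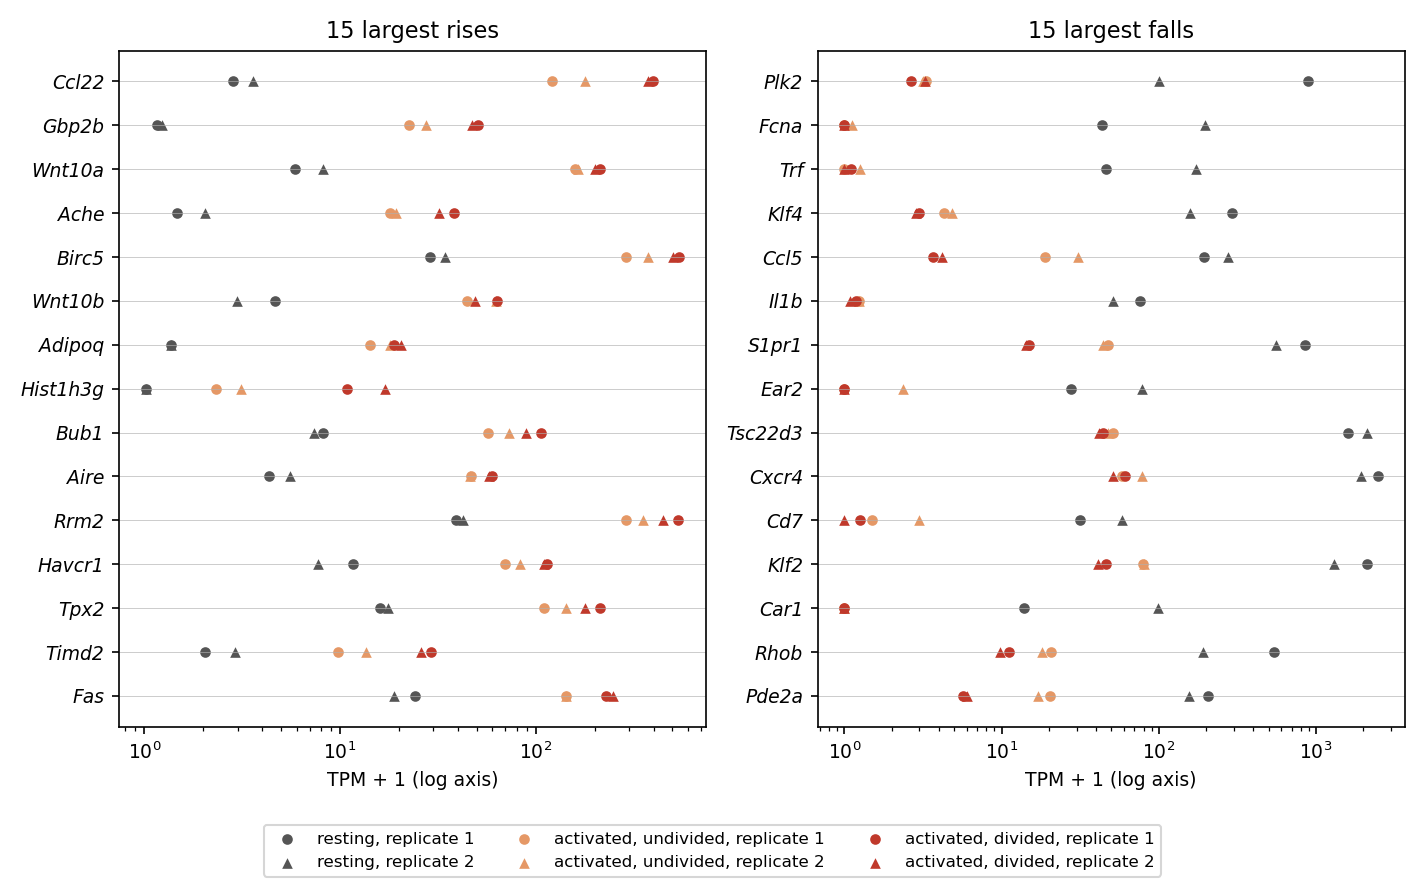
TPM + 1 on a log axis for 15 genes that rose most (left) and 15 that fell most (right) under the rule for named genes, by library (circle replicate 1, triangle replicate 2; grey resting, orange activated and undivided, red activated and divided). Resting and divided libraries are apart for each gene because the rule required it. The 2 resting libraries spread most in Plk2, Fcna, Trf and Car1, and undivided cells lie near divided ones in most.

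Secreted factors were among the largest rises. Ccl22, a chemokine that draws CCR4-bearing T cells, was at 1.84 and 2.60 TPM in resting and 396 and 374 TPM in divided cells, a log2 change of 6.92 (SE 0.44, adjusted p = 7.3e-06), with 121 and 178 TPM in undivided cells. Wnt10a and Wnt10b, ligands of the Wnt pathway, went from 4.85 and 7.17 to 211 and 200.5 TPM and from 3.66 and 1.98 to 62.4 and 47.8 TPM, log2 changes of 4.90 and 3.90. Of 32 tested cytokines and chemokines 12 rose (37.5%, against 19.4% of all genes) and 17 fell (53.1%, against 47.5%, and 9 with quantile normalization). Its median of -0.71 thus stands for genes that moved in both directions. Tnf and Ebi3, the shared beta chain of IL-27 and IL-35, rose by 2.30 and 1.95, and Mif, a cytokine of high resting level, by 0.58. Ccl5, a chemokine for T cells, fell from 192 and 273 to 2.64 and 3.19 TPM, a log2 change of -5.88 (SE 0.37, adjusted p = 7.2e-06), with 18 and 29.7 TPM in undivided cells. Il1b was at 74.6 and 50.4 TPM in resting cells and under 1 TPM in every activated Phase I library.

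Genes that NF-kB and CD40 induce moved in both directions but leaned upward. Of 30, 16 were higher (53.3%, against 19.4% of all genes) and 9 lower (30%, against 47.5%). Their median was 0.55 against -0.35 over all genes. Fas, the death receptor, stood at 23.1 and 17.8 TPM in resting cells and 227 and 249 TPM in divided cells, and Bcl2a1a, a survival gene of the BCL2 family with near-identical copies, at 356 and 219 TPM in resting cells and 1459.7 and 1568 TPM in divided cells, log2 changes of 3.49 (SE 0.21, adjusted p = 6.0e-06) and 2.43 (SE 0.19, adjusted p = 1.9e-05). Traf1, an adaptor of the CD40 receptor complex, changed by 1.70, and Cd80, a co-stimulatory ligand, by 2.35. Cd86, the other ligand of the same receptor, had a log2 change of -0.90. Among those lower were Rel, Map3k14 (the kinase NIK) and Ccr7. Rel was at 1015 and 290.5 TPM and Ccr7 at 2283 and 716 TPM in resting replicates 1 and 2, against 182 and 166 TPM and 179 and 173 TPM in divided cells. The call on Rel was lost without divided replicate 2 (-1.57, adjusted p = 0.056). Of 32 receptors for cytokines 19 fell (59.4%, against 47.5% of all genes) and 3 rose (9.38%, against 19.4%, and 5 with quantile normalization). The riser at high level was Il9r, the interleukin 9 receptor, at 150.3 and 218 TPM in resting cells and 1203 and 1158 TPM in divided cells, a log2 change of 2.70 (SE 0.26, adjusted p = 5.3e-05), and Il2ra and Tnfrsf18 rose by 1.54 and 0.73. Havcr1 and Timd2, both T cell immunoglobulin and mucin genes, Ache (acetylcholinesterase) and Aire, the regulator of self-antigen expression in thymus, were among the 15 largest rises, with log2 changes of 3.57, 3.50, 4.33 and 3.59.

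Few genes were switched on outright. With both resting libraries under 1 TPM and both divided ones at 5 TPM or more, 7 genes qualified (0.158% of those tested). Limma called all 7, but the rule and the test read the same libraries, so the calls are no separate support. Gbp2b, a guanylate-binding protein, went from 0.153 and 0.236 to 49.9 and 46.1 TPM, and Adipoq, better known as the adipocyte hormone adiponectin, from 0.36 and 0.37 to 18 and 19.4 TPM. Pdgfa, a growth factor chain, reached 6.51 and 8.01 TPM. Cntnap1, a contactin-associated protein of myelinated axons, reached 11.4 and 9.13 TPM and Nbl1, a secreted antagonist of BMP ligands, 9.72 and 9.46 TPM. The remaining 2 were the replication-dependent histone genes Hist1h3g, at 9.81 and 16 TPM, and Hist1h3b, at 5.18 and 5.36 TPM, which belong to a family of near-identical copies. In undivided cells 4 of the 7 were also at 5 TPM or more, and Hist1h3b was at 0.0256 and 0.0207 TPM. The call on Hist1h3b was lost when any 1 of the 4 libraries was left out (lowest change 2.60, adjusted p = 0.099 without divided replicate 2). The count was 2 with 10 TPM in place of 5, 13 without resting replicate 2 and 11 without divided replicate 2. The Gbp2b paralogs Gbp2, Gbp3 and Gbp5 rose by 1.74, 1.08 and 0.81. Of the 24 interferon response genes as a whole 16 fell (66.7%, against 47.5% of all genes) and 5 rose (20.8%, against 19.4%).

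Many more genes were switched off, 79 by the mirror rule (1.78%). Limma called all of them, again on the libraries that the rule had read. Fosb led by resting level. The next by level were C1qa, C1qb, Slc40a1, Csf1r, Vcam1, Fcna and Trf, of which all but Fcna and Trf were in the list of macrophage markers. C1qa, a complement subunit, was at 65.9 and 249 TPM in resting replicates 1 and 2 and listed at 0 in both divided libraries, and Csf1r, the receptor for macrophage growth factor, at 54.1 and 213 TPM in resting cells and 0.531 and 0.0778 TPM in divided cells. Resting replicate 2 was above replicate 1 in each of these 7, with Slc40a1 (ferroportin) at 44.8 and 236 TPM and Fcna (ficolin A) at 42.6 and 197 TPM. Of the 79 genes 24 were in the lists of other cell types or of early genes, 43 were more than 2-fold apart between the resting libraries, and 59 were also under 1 TPM in both undivided libraries. The count was 35 with 10 TPM in place of 5 and 154 without resting replicate 1. Outside those lists 55 genes remained, and 25 of these were within 2-fold between the resting libraries. The lists are short, so a gene outside them can still be one of other cells. Klra3 and Car1, which share family names with the listed markers Klra8 and Car2, were among the 55. They stood at 8.84 and 13.5 TPM and at 13.0 and 98.2 TPM in resting cells. Fcna, Trf, Il1b and Cd7, a surface protein of T and NK cells, were among the 55, Cd7 at 30.4 and 57 TPM in resting cells and 0.259 and 0 TPM in divided cells.

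Markers of other cells fell with them. Of 23 tested markers of myeloid cells and macrophages 18 fell (78.3%, against 47.5% of all genes) and 1 rose, and the summed level of the 24 listed was 1432 and 4124 TPM in the resting libraries and 575 and 625 TPM in the divided ones. The riser was Mpeg1, at 102 and 210.3 TPM in resting cells and 402 and 435 TPM in divided cells. Erythroid markers fell in 10 of 10, summing to 2799.6 and 3365 TPM and then 56.7 and 61.8 TPM, and Hba-a1, an alpha globin, was at 1962 and 2269.7 TPM in resting cells and 3.04 and 0 TPM in divided cells. Neutrophil markers fell in 9 of 9, NK cell markers in 6 of 7, platelet markers in 4 of 5 and T cell markers in 12 of 15, with Cd5 the 1 T cell marker that rose (0.90). Dendritic cell markers fell in 7 of 10, though Flt3, the receptor of a growth factor for dendritic cells and progenitors, rose from 12.8 and 11.4 to 73.2 and 96.1 TPM (2.69, SE 0.23, adjusted p = 2.7e-05). In divided cells the NK cell genes Ncr1 and Gzmb were at 0 and 0.0757 TPM and 0.0828 and 0.0728 TPM, and 3 of the myeloid markers were listed at 0 in both libraries. T cell markers summed to 297 and 295 TPM there, of which Lck held 137 and 151 TPM. The T cell markers Cd3e, Thy1 and Cd4 were each under 1 TPM in both divided libraries, Cd3e at 0.0863 and 0.0759 TPM. In such bulk RNA fewer cells of a type and less RNA in each cannot be told apart. Without the genes of all these lists and the early genes, 2867 genes were called, 851 higher and 2016 lower, and without the genes more than 2-fold apart between resting libraries 2722 were called, 840 higher and 1882 lower. Both of these counts were added with the data in view, and the first leaves in genes of other cells that the lists do not hold. The part these cells play in any other fall was not tested.

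**Figure D3:**
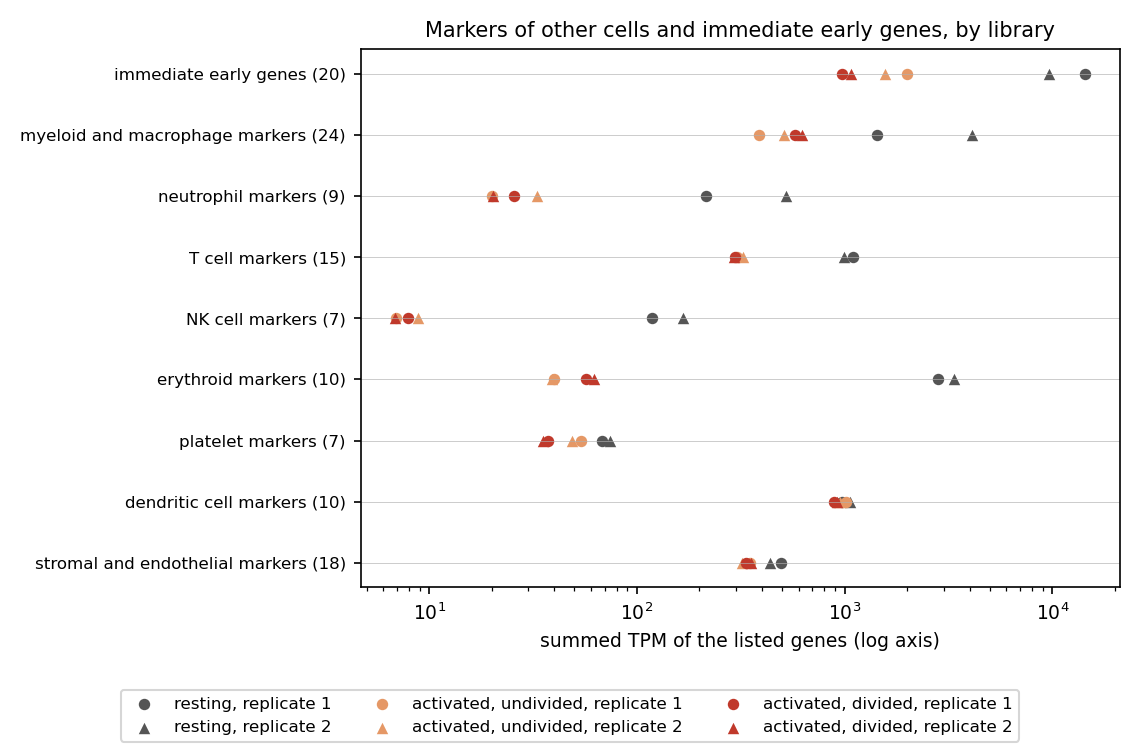
Summed TPM (log axis) of immediate early genes and of the marker lists of other cell types in each library, with the number of listed genes in brackets; circles are replicate 1 and triangles replicate 2. Resting libraries are the highest for most lists, resting replicate 2 is above replicate 1 for myeloid and neutrophil markers, and replicate 1 is above replicate 2 for early genes.

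B cell identity genes fell modestly. Of 23 genes of the B cell receptor and its co-receptors 20 fell (87%, against 47.5% of all genes) and 0 rose. Their median was -0.58 against -0.35 over all genes, and with median-ratio scaling 12 fell and 2 rose. Cd79a had a log2 change of -0.74 and Cd22, an inhibitory co-receptor, one of -1.11. Ptpn6, the phosphatase SHP-1, at -0.26, passed the test as deposited but stood at 0.056 with median-ratio scaling. The call on Ptpn6 was lost without resting replicate 2 or either divided library. Cd79b, at -0.43, lost its call without resting replicate 2 (-0.21, adjusted p = 0.28) or either divided library. Fcer2a, the low-affinity IgE receptor, Blnk and Fcgr2b did not pass the test, with changes of 0.08, -0.05 and -0.10. With median-ratio scaling Fcer2a and Blnk passed, at 0.39 (adjusted p = 0.036) and 0.27 (adjusted p = 0.034). Of 33 B cell transcription factors 24 fell (72.7%, against 47.5%) and 3 rose (5 with median-ratio scaling), against 19.4% of all genes higher. Ets1 stood at 1170.2 and 1207 TPM in resting cells and 319.5 and 304 TPM in divided cells, a log2 change of -1.93 (SE 0.11, adjusted p = 5.9e-06), and Bcl6, the germinal centre repressor, at 282 and 155 TPM in resting cells and 44.6 and 35.5 TPM in divided cells, -2.37 (SE 0.27, adjusted p = 1.3e-04). Pax5 and Ebf1 had log2 changes of -0.90 and -1.72. The 3 that rose were Id3, an inhibitor of E proteins, Mef2b and Batf, an AP-1 factor, with changes of 2.13, 2.05 and 1.11. Spib and Pou2af1, both B cell coactivators or factors of high level, did not pass, at -0.17 and -0.03, though Spib passed without resting replicate 1, at -0.41 (adjusted p = 0.033). Irf4 was at 1682 and 308 TPM in resting replicates 1 and 2 and 264 and 230.0 TPM in divided cells, and its call was lost without resting replicate 1 (-0.32, adjusted p = 0.054) and without any other library except resting replicate 2.

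Lists of later B cell fates held more genes that fell than rose, as did all genes together. Plasma cell genes fell in 6 of 9 (66.7%, against 47.5%, and 4 with either other scaling) with 0 higher. Jchain, the joining chain of IgM, fell from 147 and 331 to 8.10 and 19.5 TPM and Sdc1, syndecan 1, from 25.3 and 30.8 to 2.88 and 3.04 TPM. Prdm1, the plasma cell factor Blimp-1, had a log2 change of -2.25. Of 10 germinal centre genes 7 fell (3 with quantile normalization), and the 3 that rose (30%, against 19.4%) were Fas, Mef2b and Ccnd3. Of 15 genes of marginal zone and B1 cells 10 fell (66.7%, and 7 with either other scaling) and 4 rose (26.7%). Among the latter was Cd36, a scavenger receptor, at 100.3 and 104 TPM in resting cells and 419 and 418 TPM in divided cells (2.03, SE 0.13, adjusted p = 8.3e-06), while Plac8 fell from 1833 and 2072 to 281 and 382 TPM. MHC class II genes fell in 9 of 11, H2-Ab1 with a log2 change of -0.72 and H2-Eb1 with -0.65, and 5 of 11 with median-ratio scaling, under which H2-Aa and H2-Eb1 no longer passed. Of 16 MHC class I genes 7 fell (43.8%) and 3 rose (18.8%), close to the shares of all genes, and after median-ratio scaling 3 were lower and 6 higher. B2m, the class I light chain, had a log2 change of -0.30 but stood at 0.015 with median-ratio scaling.

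Receptors for homing and egress showed some of the deepest falls of the B cell genes. Of 24, 18 fell (75%, against 47.5% of all genes) and 3 rose, with a median of -1.45. S1pr1, which takes lymphocytes out of tissue towards sphingosine 1-phosphate, was at 852 and 556 TPM in resting cells and 14 and 13.2 TPM in divided cells, with 46.6 and 43.2 TPM in undivided cells, and its log2 change was -5.56 (SE 0.29, adjusted p = 4.1e-06). Cxcr4, the receptor for CXCL12, was at 2482 and 1923 TPM in resting cells and 60.3 and 50.1 TPM in divided cells, a change of -5.29 (SE 0.17, adjusted p = 1.3e-06). Itgb7, an integrin beta chain, was at 357 and 408 TPM in resting cells and 30.6 and 32.6 TPM in divided cells, a change of -3.55. Those that rose were Ccr6, the receptor for CCL20, at 598 and 438 TPM in resting cells and 1230.4 and 1283 TPM in divided cells (1.29, SE 0.16, adjusted p = 2.0e-04), Cd44, the hyaluronan receptor (1.11), and Ackr3, a scavenger of CXCL12 (1.34). The call on Ackr3 was lost without resting replicate 2 (1.18, adjusted p = 0.070).

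**Figure D4:**
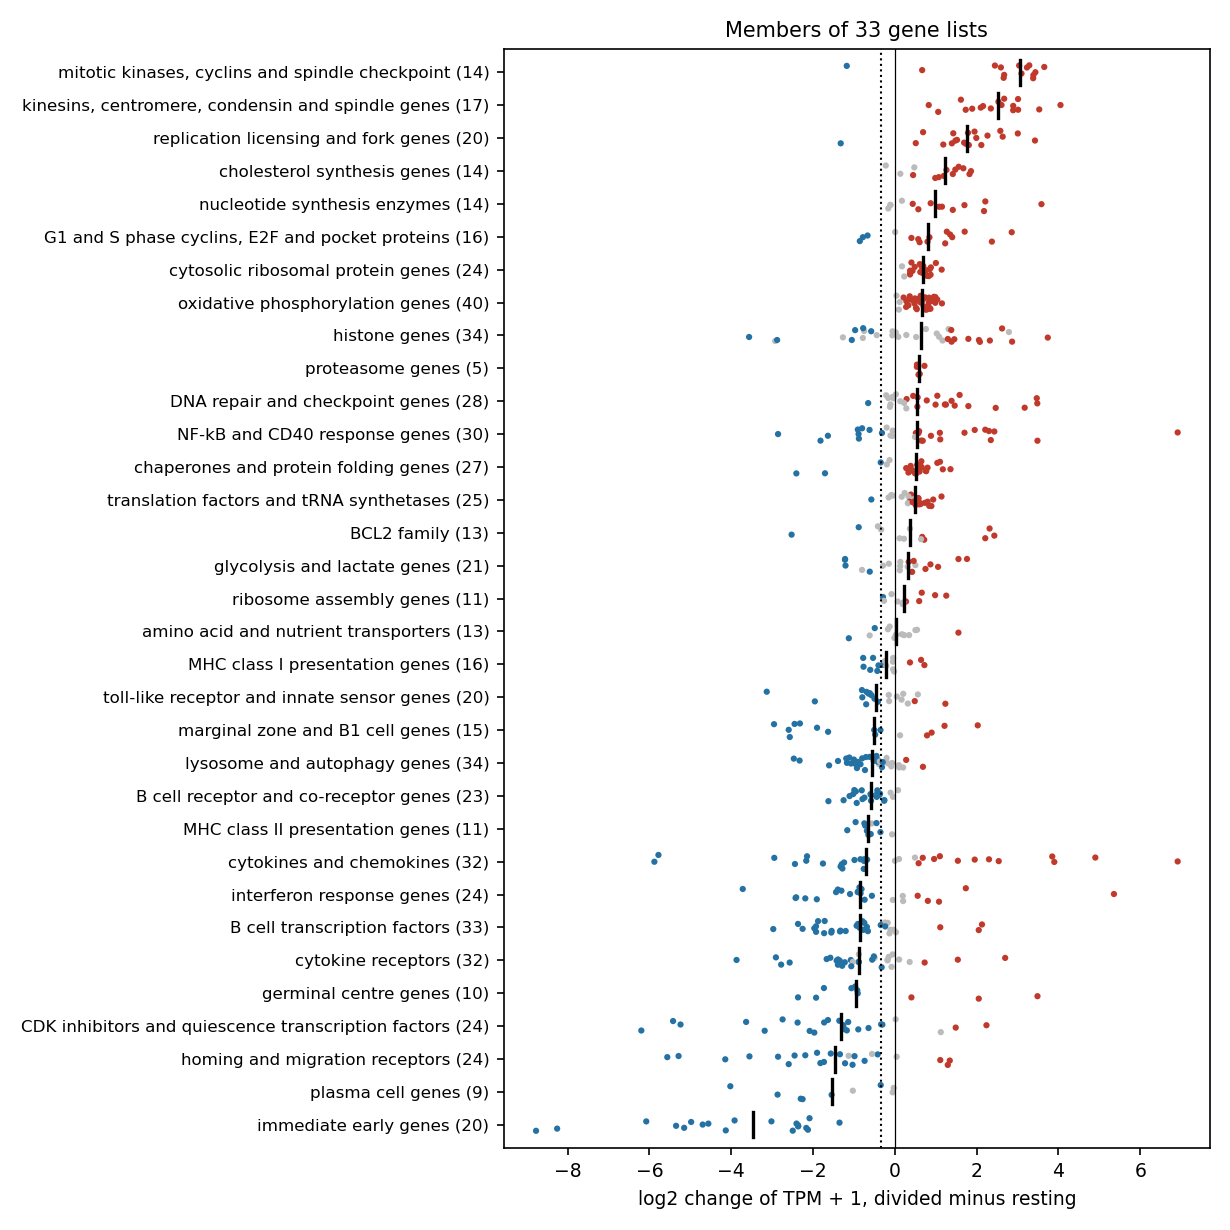
Log2 change of TPM + 1, divided minus resting cells, for each tested member of 33 gene lists (points; red called higher, blue called lower, grey not called) with each list's median (black bar) and number of tested genes in brackets, ordered by median. The dotted line marks the median of all tested genes, -0.35; mitotic, replication and cholesterol lists lie furthest to its right and immediate early genes furthest to its left.

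Genes of growth rose by small amounts in large numbers. Of 24 cytosolic ribosomal protein genes 22 rose (91.7%, against 19.4% of all genes) and 0 fell, with a median of 0.68, and their summed level went from 140440 and 148293 to 212077 and 233848 TPM. TPM values are shares of a fixed total, so a gain of this size is matched by losses elsewhere in the library. Of 40 genes of oxidative phosphorylation 37 rose and 0 fell, with a median of 0.67. Atp5g2, a subunit of the proton channel of ATP synthase, stood at 1022 and 1025 TPM in resting cells and 2010.4 and 2061 TPM in divided cells and Cox4i1, of cytochrome c oxidase, at 1078 and 1089 TPM in resting cells and 1904 and 1950.1 TPM in divided cells. Of 25 translation factors and tRNA synthetases 16 rose (64%) and 1 fell, Eif5a by 0.94, and all 5 proteasome genes rose. Of 27 chaperones and folding factors 22 rose and 3 fell, and of 11 ribosome assembly genes 5 rose (45.5%) and 1 fell (8 rose with either other scaling), led by Npm1, nucleophosmin, at 1555 and 1544 TPM in resting cells and 3739 and 3676 TPM in divided cells (1.26, SE 0.07, adjusted p = 5.1e-06). With quantile normalization 15 ribosomal protein genes were higher and 1 lower, and 39 genes of oxidative phosphorylation were higher.

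Among metabolic lists cholesterol synthesis had the largest shift, 11 of 14 higher (78.6%) and 0 lower with a median of 1.23. Idi1, isopentenyl diphosphate isomerase, stood at 67.5 and 54.3 TPM in resting cells and 233 and 203 TPM in divided cells, a log2 change of 1.83 (SE 0.21, adjusted p = 1.3e-04). Sqle, squalene epoxidase of the later pathway, changed by 1.86. Of 21 genes of glycolysis 8 rose (38.1%, against 19.4% of all genes) and 4 fell (19%, against 47.5%), and 14 were higher with either other scaling. Gapdh rose from 2218 and 2203 to 7709 and 7323 TPM (1.76, SE 0.11, adjusted p = 6.4e-06), far more than Pkm (0.75) and Ldha (0.87). Of 13 nutrient transporters 1 rose (7.69%, against 19.4% of all genes) and 2 fell (15.4%, against 47.5%). Their median was 0.03 against -0.35 over all genes, and with either other scaling 5 were higher and 1 lower. Slc25a4, the mitochondrial exchanger of ADP and ATP, rose by 1.56 and Slc3a2, the heavy chain of amino acid transporters, had a log2 change of -1.12. Genes of lysosomes and autophagy fell in 23 of 34 (67.6%) with 2 higher (16 lower with either other scaling, with 6 and 5 higher), Sqstm1 with a log2 change of -1.19 and Lamp1 with -0.84.

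Survival genes of the BCL2 family moved one by one, with 5 of 13 higher (38.5%, against 19.4% of all genes) and 2 lower (15.4%, against 47.5%). With median-ratio scaling 8 were higher. Bcl2l1, which encodes BCL-XL, went from 11 and 14.9 to 70.8 and 55.9 TPM (2.21, SE 0.20, adjusted p = 4.4e-05), whereas Bcl2 fell from 120.1 and 142 to 76 and 65.3 TPM (-0.88, SE 0.13, adjusted p = 4.8e-04). Bid, a pro-apoptotic member, rose by 2.32 and Bmf, another, had a log2 change of -2.52. Mcl1, an abundant member at 760.4 and 1199 TPM in resting and 737 and 778 TPM in divided cells, did not pass the test, but without resting replicate 1 it did, at -0.66 (adjusted p = 0.0015) in place of -0.33. Genes of DNA repair and checkpoints rose in 17 of 28 (60.7%, against 19.4% of all genes) with 1 lower, Apex1 by 1.04. Of 34 histone genes 11 rose (32.4%, against 19.4%) and 6 fell (17.6%, against 47.5%), and 3 fell with median-ratio scaling. The variant H2afz rose from 478 and 488 to 1660.4 and 1704 TPM (1.80, SE 0.11, adjusted p = 6.3e-06), while H3f3a, a replication-independent H3 gene, fell from 5386 and 4749.7 to 2747 and 3184 TPM and the linker histone Hist1h1c had a log2 change of -3.56. Copies of replication-dependent histone genes are close in sequence, so single members are uncertain.

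Changes within genes were read from the RefSeq transcripts of the table. At this level 4116 of 8165 transcripts were called (50.4%), 1027 higher and 3089 lower, or 1740 higher and 1747 lower with median-ratio scaling. Transcript usage, the log2 ratio of a transcript to the other transcripts of its gene, was tested for 5118 transcripts of 1606 genes, and 514 (10%) were called in 276 genes, 228 higher (4.45%) and 286 lower (5.59%). The count is sensitive. It was 131 when resting and divided libraries were fitted alone, 265 without resting replicate 1, 170 without divided replicate 1, 206 without divided replicate 2 and 883 with a pseudocount of 5 TPM. Of the called usage changes 75 were in genes whose total was not called, and 72 genes held transcripts called in both directions. In 71 genes a different transcript led in both resting than in both divided libraries, and in 1214 the same transcript led in all 4. In 22 of the 71 both of those transcripts passed the usage test. Reads were single and 50 bases long, so transcripts that share most exons are told apart by few reads.

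E2f3, a transcription factor of S phase genes, changed its leading transcript. Its total was 26.2 and 24.4 TPM in resting cells and 42.9 and 33.8 TPM in divided cells, a log2 change of 0.57 (SE 0.14, adjusted p = 0.0075), which was lost without divided replicate 1 (0.41, adjusted p = 0.054). NM_010093 was at 2.76 and 2.66 TPM in resting cells and 27.4 and 19.8 TPM in divided cells, 10.5% and 10.9% and then 64% and 58.4% of the gene, with 53% and 48.7% in undivided cells. NM_001359994 fell from 54.4% and 46.5% to 18.6% and 16.5% of the gene. The usage of NM_010093 changed by 3.29 (SE 0.26, adjusted p = 6.8e-04), and no leave-one-out setting ended that call. In the GENCODE M21 annotation of GRCm38 both transcripts lie on the minus strand of chromosome 13 with 7 exons and end at 29906575, but NM_010093 starts at 29986063 and NM_001359994 and NM_001289920 start at 29984391. The 250 bases before each start, from RefSeq, are printed because usage shifted between them. The window of the upstream start, chr13:29986064-29986313, holds 3 CCAAT boxes, 1 CHR and 1 E2F site, in capitals. One CCAAT box and the E2F site read on the other strand. None of the motifs searched is in the window of the downstream start, chr13:29984392-29984641.
E2f3, upstream start (NM_010093): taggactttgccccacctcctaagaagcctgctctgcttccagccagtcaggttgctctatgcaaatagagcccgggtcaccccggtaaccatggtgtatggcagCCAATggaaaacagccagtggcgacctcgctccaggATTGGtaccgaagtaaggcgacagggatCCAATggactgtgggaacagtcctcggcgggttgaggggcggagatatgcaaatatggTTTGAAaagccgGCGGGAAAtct
E2f3, downstream start (NM_001359994): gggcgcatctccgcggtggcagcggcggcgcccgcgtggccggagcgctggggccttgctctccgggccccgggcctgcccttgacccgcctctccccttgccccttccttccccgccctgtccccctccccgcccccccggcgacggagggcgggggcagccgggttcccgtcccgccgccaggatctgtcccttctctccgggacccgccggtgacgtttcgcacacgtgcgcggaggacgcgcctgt
Their absence from a window says only that these letters are not in it.

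Srsf3, Tra2b and Hnrnpa2b1, which encode RNA-binding proteins of splicing, were picked with their values in view. The leading transcript changed in Srsf3 and Tra2b and not in Hnrnpa2b1. Srsf3, an SR protein, has a coding transcript of 6 exons (NM_013663) and a transcript of 7 exons that RefSeq lists as non-coding (NR_036613). The coding one was at 156 and 108 TPM in resting and 414 and 479 TPM in divided cells, and the non-coding one at 331 and 364 TPM and 192 and 182 TPM. The coding share thus went from 32% and 22.9% to 68.3% and 72.4%, with 63% and 61% in undivided cells, a usage change of 2.66 (SE 0.29, adjusted p = 0.0027). Tra2b, a related splicing activator, showed NM_009186 at 14 and 72.1 TPM in resting and 204 and 209.8 TPM in divided cells, against 264 and 137 TPM and 71.4 and 93 TPM for NM_001330555. The resting libraries were far apart for Tra2b, and its usage change of 3.58 (SE 0.81, adjusted p = 0.029) lost its call without divided replicate 1 (adjusted p = 0.13) or 2 (adjusted p = 0.11). Hnrnpa2b1, an RNA-binding protein, shifted slightly towards NM_016806, by 0.98 (SE 0.20, adjusted p = 0.019), and that call was lost without resting replicate 1 (adjusted p = 0.058) and without either divided library (adjusted p = 0.11 and 0.085).

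Among the largest usage changes by the naming rule, most were gains of 1 transcript. Dtl, the substrate receptor of the ligase that destroys CDT1, was carried by NM_029766 at 65% and 56.5% of the gene in resting and 96% and 96.6% in divided cells, the largest usage change among the named transcripts after that of Fosb (3.86, SE 0.30, adjusted p = 6.8e-04). The Fosb value is of a gene at under 1 TPM in divided cells and is not read further. Ahcyl2, a homologue of adenosylhomocysteinase, went from 21.1% and 17.6% to 67.3% and 70.8% for NM_001347084 (3.07, SE 0.22, adjusted p = 5.9e-04). Fam92a, a ciliary membrane protein gene, went from 46.5% and 44.4% to 93.3% and 86.9% for NM_026558, and Havcr1 and Timd2 rose almost wholly through NM_001166632 and NM_001161355. A minor transcript of Rps24 (NM_011297, 0.992% and 1.18% and then 0.118% and 0.0679%) and the main one of Alox5ap (NM_009663, 97.3% and 98.5% and then 85.5% and 79.8%) lost share. Alox5ap is a myeloid gene at 29 and 71.5 TPM in the resting libraries. In divided cells NM_009663 was at only 4.38 and 4.47 TPM, so its usage change, like that of Fosb, is not read further.

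A further 3 genes were picked for their roles with their values in view. Birc5 had 63% and 72.4% of its TPM in NM_009689, a transcript of 4 exons, in resting cells and 90.1% and 91.5% in divided cells (2.27, SE 0.31, adjusted p = 0.0048), the rest being NM_001012273 with 3 exons. Both of its transcripts rose, NM_001012273 from 10.3 and 9.23 to 53.2 and 43.1 TPM. Syk, the kinase that starts signalling from the antigen receptor, lost NM_001198977, from 541 and 624 to 100 and 103 TPM, while NM_011518 was at 616 and 575 TPM and 552 and 464 TPM and did not pass the test. The share of NM_011518 went from 53.2% and 48% to 84.7% and 81.9% (2.27, SE 0.26, adjusted p = 0.0027). The 2 Syk transcripts start at 52583173 and 52596853 of chromosome 13 on the plus strand, NM_001198977 upstream. Bcl2l1 rose mainly in NM_009743, from 3.75 and 3.41 to 48.3 and 42.2 TPM and from 34.2% and 22.9% to 68.2% and 75.6% of the gene (2.46, SE 0.31, adjusted p = 0.0042), and here undivided cells were between, at 39.8% and 46.5%. For these 3 genes no leave-one-out setting ended the usage call.

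**Figure D5:**
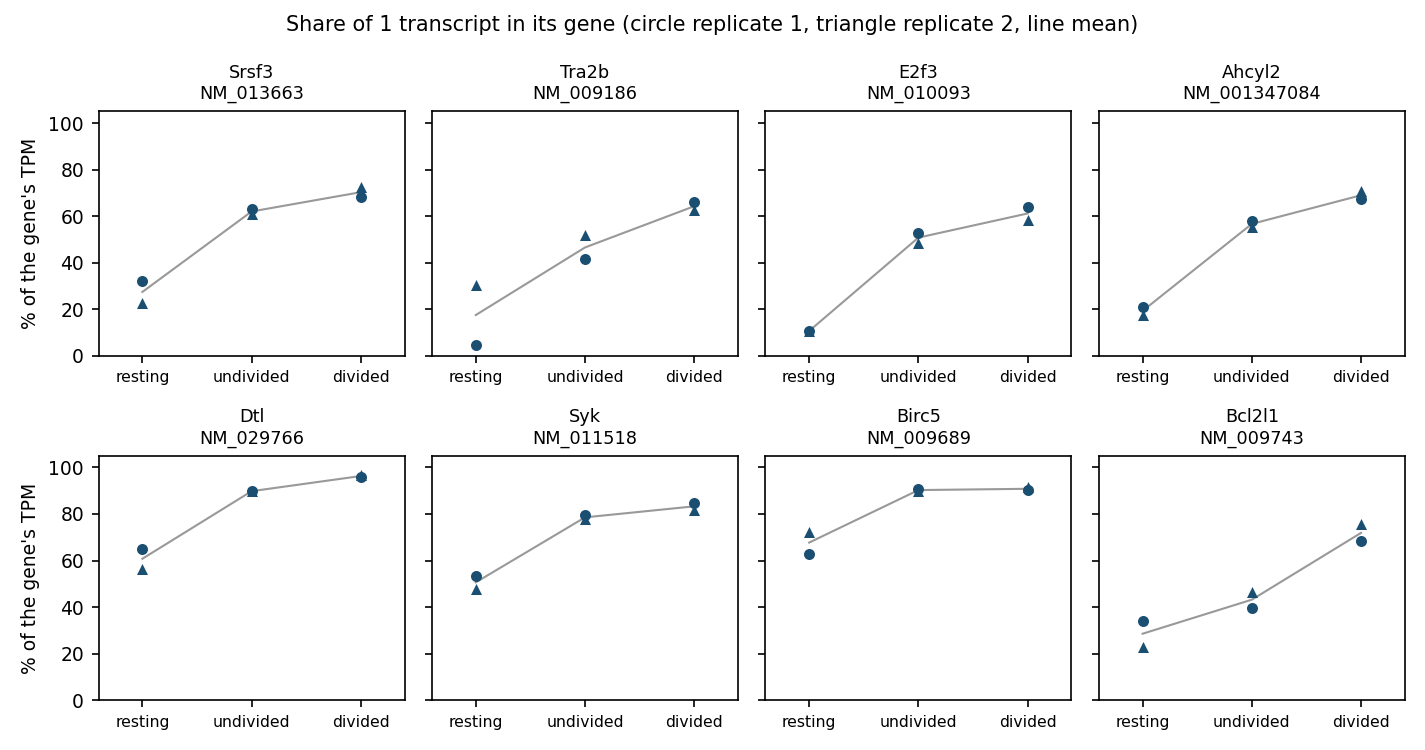
Share of 1 named RefSeq transcript in the summed TPM of its gene, in percent, for 8 genes in resting, undivided and divided cells (2 libraries each; circle replicate 1, triangle replicate 2, line joining the means). The named transcript gained share in each gene between resting and divided cells, but the 8 were picked by their usage change or with their values in view. The resting libraries are far apart in Tra2b, and in Bcl2l1 the larger part of the gain lies between undivided and divided cells.

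Division itself was set beside these values through the undivided cells of the same activation. Both activated groups are measured against the same resting libraries, so only the direct difference of divided and undivided cells was tested. It gave 388 called genes (8.76%), 163 higher (3.68%) and 225 lower (5.08%), or 320 higher and 191 lower with median-ratio scaling. The count was 0 without either undivided library, 4 without divided replicate 2 and 119 without divided replicate 1, so single calls in it are weakly held. Replication genes were higher in 13 of 20 and chaperones in 16 of 27, against 3.68% of all genes, and mitotic kinases and cyclins in 1 of 14. The median differences from undivided cells were 0.58 for replication genes and 0.51 for mitotic kinases and cyclins, and whether these lists differ was not tested. Mcm5 was at 269 and 328 TPM in undivided cells, with a further change of 0.79 (SE 0.13, adjusted p = 0.02), and Ccnb2 at 164 and 198 TPM with 0.60 (SE 0.17, adjusted p = 0.068), which did not pass. Ccl5 and S1pr1 fell further in divided cells, with changes of -2.63 (SE 0.37, adjusted p = 0.014) and -1.65 (SE 0.29, adjusted p = 0.02). By contrast Cxcr4 and Tsc22d3, at 56.9 and 77 TPM and 50 and 46.8 TPM in undivided cells, differed from divided cells by -0.26 (SE 0.17, adjusted p = 0.36) and -0.20 (SE 0.26, adjusted p = 0.67) and did not pass that test.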

How the data were processed

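Total RNA was depleted of ribosomal RNA and read as 50-base single ends, per the labels' protocols. The authors deposited 1 table of TPM values per RefSeq transcript for all 10 libraries. HISAT2, Salmon, featureCounts, HTSeq and DESeq2 are named with the build mm10 in the submitters' processing notes, and neither roles nor versions are given in the sources used here. TPM keeps no depth, so counting error is unknown.

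Of 13128 transcripts 63 had no symbol, and the rest were summed to 6610 genes, among them 6320 of the 21900 protein-coding genes that the reference holds (28.9%), so lists are counted over listed genes only. Features with at least 1 TPM in 2 libraries were tested with limma 3.58.1 (R 4.3.3; lmFit, eBayes with trend, 5 residual degrees of freedom) on log2(TPM + 1), with all 10 libraries and 5 groups sharing 1 estimate of spread, and Benjamini-Hochberg adjustment over all features. Usage was tested in genes of at least 10 TPM. Figures were drawn with matplotlib 3.10.9, and tables were made in pandas 2.3.3 with numpy 2.4.6 under Python 3.11.15. The test was checked on simulated data in which each gene had the same spread in all groups and few genes were shifted. That check does not cover the wider spread of the resting libraries or a change in most genes. Promoters came from RefSeq (GRCm38.p6).

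Genes were named by rule: the 20 most abundant in divided cells; the 15 largest rises and 15 largest falls among called genes without overlap and with at least 10 TPM in the higher group, falls outside the lists of other cells and early genes; the 8 highest genes switched on and off; 2 to 4 of the most abundant called members of each list; and the 10 largest usage changes, 1 per gene. Other members of the lists were named for their roles, and they, with Srsf3, Syk, Birc5 NM_009689, Bcl2l1 NM_009743 and Hnrnpa2b1, were chosen with their values already in view. The comparison, the members and the lists were chosen with earlier results of these data known. Alternatives were other pseudocounts, filters, scalings, models, a replicate block and each library left out. Some genes that these rules would name are not reported here.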

Additional observations from a re-analysis of the deposited data

How the results depend on the processing

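The count of 2962 called genes ranged from 2372 (resting and divided libraries fitted alone) to 3220 (no filter) outside a required fold of 2, which left 559 (159 higher, 400 lower) and 576 transcripts. Genes higher numbered 1350 with median-ratio scaling and 1472 with quantile normalization, and genes lower 1294 with the latter. Among named genes that had passed, signs turned for Ptpn6 (0.056), Irf8 (0.078) and B2m (0.015) with median-ratio scaling and for Rpl38 (-0.047) with quantile normalization. Of those that had not, Blnk, Fcgr2b, Spib and Pou2af1 turned with median-ratio scaling, where Blnk passed at 0.27, and Fau, Actb, Fcer2a, Blnk and Pou2af1 with quantile normalization, where Fau passed at -0.22. The cause was not tested. Deviations of same-numbered libraries from their group means had correlations across genes of 0.03 between resting and divided and 0.13 between resting and undivided libraries. Between undivided and divided libraries the value was -0.24. With 2 libraries a group these values cannot tell whether same-numbered libraries shared a pool. A replicate block kept 2883 of the calls against resting cells and lost none of 256 named genes, but gave 247 calls against undivided cells. Those 388 calls became 162 without a filter, 236 in a fit alone, 183 without the trend and 0 with a fold of 2, and ranged from 0 to 607 with 1 library left out. Where 1 library was left out, usage calls ranged from 170 to 482, genes switched on from 8 to 13 and genes switched off from 87 to 154. Usage calls were 883 with a pseudocount of 5 TPM and 131 in a fit alone. Requiring 10 TPM left 2 genes switched on and 35 switched off. With 2 libraries a group, a left-out library leaves 1, which is assumed to vary like the other groups. Depth is unknown, so low levels carry no counting interval.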

Other observations

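Of 24 tested interferon response genes 16 fell (66.7%, against 47.5% of all genes) and 5 rose (20.8%, against 19.4%), with a median log2 change of -0.85. Samhd1, a nucleotide hydrolase that restricts retroviruses, stood at 923 and 1047 TPM in resting cells and 195 and 174 TPM in divided cells (-2.41, SE 0.18, adjusted p = 1.6e-05), and Irf7, an interferon regulatory factor singled out after its values were seen, at 175 and 189 TPM in resting cells and 12.7 and 13 TPM in divided cells (-3.72, SE 0.26, adjusted p = 1.1e-05). Irf1 and Irf9 had log2 changes of -1.44 and -0.86. The 5 that rose were Irgm1 and the guanylate-binding proteins Gbp2, Gbp2b, Gbp3 and Gbp5. The call on Irgm1 (0.56) was lost without resting replicate 1 (0.20), divided replicate 1 (0.60) or divided replicate 2 (0.51). Of 20 toll-like receptors and innate sensors 11 fell (55%) and 2 rose (10%), a lower share near that of all genes, and with median-ratio scaling 6 were lower and 7 higher. Tlr1 had a log2 change of -0.64, and Nod1, a sensor of bacterial peptides singled out after its values were seen, went from 44.8 and 63.8 to 5.74 and 4.74 TPM (-3.13, SE 0.38, adjusted p = 1.6e-04). Tmem173, which encodes the cytosolic DNA adaptor STING, rose from 179.7 and 277 to 515 and 539 TPM (1.24, SE 0.20, adjusted p = 8.5e-04). Among 7 tested stromal and endothelial markers 2 fell and 2 rose (28.6% each way). Those that fell were Pecam1, an adhesion molecule that leukocytes also carry, at 428 and 376 TPM in resting cells and 228 and 263 TPM in divided cells (-0.71), and Vwf, von Willebrand factor, at 1.83 and 2.48 TPM in resting cells and 0.0879 and 0.121 TPM in divided cells (-1.51). Madcam1, an addressin of gut vessels, was at 0.189 and 0.195 TPM in resting and 5.03 and 4.91 TPM in divided cells, and Acta2, smooth muscle actin, at 56.5 and 51.8 TPM in resting cells and 97.1 and 81.6 TPM in divided cells.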
